A study of Mus musculus with 797 samples.

Results

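The transcripts described here are those made from the mitochondrial genome. They were taken as every row of the count table whose symbol begins with mt-, which gave 13 of 32285 gene rows, all of them genes for proteins. The mm10 annotation used for positions, GENCODE M21, lists 37 mitochondrial genes, and its 22 transfer RNA and 2 ribosomal RNA genes were not analysed here. The measure is the mt- share, the percent of a nucleus's gene reads that fell on these 13 rows.

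The data were RNA sequencing reads of single nuclei sorted for yellow fluorescence from C57Bl/6J mice, all labelled striatum. Each mouse had received 1 adeno-associated virus of capsid PHP.eB at 5e11 vector genomes, in which an enhancer or promoter drove H2B-SYFP2, a yellow protein fused to a histone that stays in the nucleus, and nuclei were collected 3 to 4 weeks later. The 20 vector labels comprised 4 reference elements (CMV, hSyn1, hI56i and DLX2.0) and 16 elements named AiE, with 39 or 40 nuclei each, and no animal was named, so each label is 1 sample. Full-length cDNA came from polyadenylated RNA by SMART-Seq v4 and libraries by Nextera XT. The library names carry 1 of 3 prefixes, whose meaning the labels do not give; nuclei under AB-S40331 are called set A here, those under AB-S40317 set B and those under AB-S40330 set C. After removal of nuclei with fewer than 50000 gene reads or 1000 genes, 781 of 797 nuclei remained, 516 in set A, 178 in set B and 87 in set C, with a median of 292895 gene reads. No nuclei had identical counts. No p-value was made from nuclei, and all intervals below are exact 95% intervals that cover counting error only.

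The mitochondrial genome is a small circular DNA in the mitochondria of the cytoplasm. Its genes are transcribed from both strands as long precursors that are cut into separate RNAs, and the proteins made from them are core subunits of respiratory complexes I, III and IV and of the ATP synthase, complex V, while all other subunits are encoded in the nucleus. Because these RNAs reside in mitochondria, their share of reads in sorted nuclei is widely used as a measure of cytoplasmic material carried along.

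Parts of the mitochondrial genome also exist as copies in nuclear chromosomes that carry the same bases, so the sequences are shown before the gene levels. Each mt- gene was searched in words of 50 bases, on both strands, against all other GENCODE M21 transcripts, a search chosen after the gene levels had been seen. In the stretches below, all from the mm10 mitochondrial genome and written in the direction of the gene, capitals mark bases that are identical to an annotated pseudogene on chromosome 1, except in mt-Atp8, where they mark the overlap with mt-Atp6. The 3 stretches with a copy show a gene copied almost whole and the borders of 2 partial copies, and the 3 others come from genes without a shared word.
mt-Nd4l, chrM:9877-10173, plus strand, whole gene, capitals shared with Gm10222: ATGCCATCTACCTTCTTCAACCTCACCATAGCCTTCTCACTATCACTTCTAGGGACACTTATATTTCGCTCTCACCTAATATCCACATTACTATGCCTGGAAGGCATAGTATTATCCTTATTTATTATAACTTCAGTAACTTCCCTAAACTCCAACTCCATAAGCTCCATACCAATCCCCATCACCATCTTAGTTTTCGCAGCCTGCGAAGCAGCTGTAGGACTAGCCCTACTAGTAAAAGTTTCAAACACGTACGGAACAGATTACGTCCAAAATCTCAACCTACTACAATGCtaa
mt-Co1, chrM:6364-6423, plus strand, bases 1037 to 1096 of the gene, capitals shared with Gm29216: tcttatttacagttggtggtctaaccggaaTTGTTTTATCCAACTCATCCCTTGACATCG
mt-Nd4, chrM:11013-11072, plus strand, bases 847 to 906 of the gene, capitals shared with Gm28439: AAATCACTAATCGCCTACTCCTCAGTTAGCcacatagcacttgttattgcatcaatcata
mt-Atp8, chrM:7766-7969, plus strand, whole gene, capitals shared with mt-Atp6: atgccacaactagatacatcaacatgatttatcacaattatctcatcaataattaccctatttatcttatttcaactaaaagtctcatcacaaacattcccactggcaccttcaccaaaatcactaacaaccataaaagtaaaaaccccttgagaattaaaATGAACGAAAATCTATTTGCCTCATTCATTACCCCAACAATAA
mt-Cytb, chrM:14145-14204, plus strand, first 60 bases, no shared word: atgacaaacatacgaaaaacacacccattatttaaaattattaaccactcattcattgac
mt-Nd1, chrM:2751-2810, plus strand, first 60 bases, no shared word: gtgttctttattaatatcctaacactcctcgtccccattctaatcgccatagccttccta

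For 5 genes nearly every 50-base word also occurred outside the mitochondrial genome: mt-Co2 (100%), mt-Co3 (99.9%), mt-Atp6 (99.5%), mt-Nd4l (98.8%) and mt-Nd3 (98.0%). The share was 62.2% for mt-Nd4 and 51.1% for mt-Co1, 8.19% for mt-Nd2 and 7.61% for mt-Nd5. No word of mt-Nd1, mt-Cytb, mt-Nd6 or mt-Atp8 occurred in another annotated transcript. Sequence outside annotated transcripts was not searched. With words of 100 bases the share was 30.8% for mt-Co1, 3.19% for mt-Nd2 and 0% for mt-Nd5.

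Most of the sharing lay in 7 pseudogenes on the minus strand of chromosome 1 between bases 24611535 and 24616197 of mm10, which stand in the order of their mitochondrial counterparts. Gm29216 held an identical run of 479 bases of mt-Co1, Gm28661 681 of mt-Co2, Gm10925 678 of mt-Atp6, Gm28437 783 of mt-Co3, Gm28438 342 of mt-Nd3, Gm10222 294 of mt-Nd4l and Gm28439 876 of mt-Nd4. The copies of mt-Co2 and mt-Atp6 were 233 bases apart, the same distance as between the matching bases of the mitochondrial genome. That interval is where mt-Atp8 lies in the mitochondrial genome, and on chromosome 1 it holds no annotated transcript; its sequence was not analysed here. The last 43 bases of mt-Atp8 are also the first of mt-Atp6 and so lie within the run shared with Gm10925, but they are shorter than a word. None of the 14 pseudogenes that shared a word was among the 32285 gene rows.

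By library set, mt- shares over 1% were found in set B and in neither other set among the nuclei kept. The mean share was 1.17% ± 1.59 (SD, 178 nuclei) in set B, 0.0161% ± 0.0388 (516 nuclei) in set A and 0.0144% ± 0.0334 (87 nuclei) in set C. The nuclei of set B formed 2 separate clusters: 95 nuclei had at most 0.158%, 83 had at least 0.658%, and none lay between. The median of set B was 0.0438%, within the lower cluster.

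More than 1% of reads was mitochondrial in 78 of 178 nuclei of set B (43.8%, 36.4 to 51.4). In set A it was 0 of 516 nuclei and in set C 0 of 87, counts of 0 for which the limit of 3 counts is 0.581% and 3.45%. The highest nucleus had 0.445% in set A and 0.214% in set C. The 1% limit passed through the lower edge of the upper cluster: the nuclei just inside it had 1.03%, 1.08% and 1.14%, and those just outside 0.989%, 0.939% and 0.923%. Of the 3 nuclei of set B left out for low reads or genes, 1 had a share of 88.4% (AiE0779m, 358 genes) and 1 of 33.02% (AiE0390m, 637 genes). With all 181 nuclei the mean of set B was 1.82% and 80 were over 1%. The 13 nuclei left out of sets A and C had at most 0.312%. Among the nuclei kept and over the limit the median was 2.06% and the highest 8.98%, and 2687 to 59823 mt- reads from 11 to 13 of the 13 genes stood behind each value.

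At the other end, no mt- read at all was found in 267 nuclei of set A (51.7%, 47.3 to 56.1), in 48 of set C (55.2%, 44.1 to 65.9) and in 54 of set B (30.3%, 23.7 to 37.7). Thinned to 100000 reads per nucleus, which left out 5 nuclei of set A, the shares were 56.4%, 60.9% and 31.5% in the same order. Before thinning, all 54 nuclei of set B without an mt- read lay in its lower cluster, 56.8% of the 95 nuclei there. The mean mt- share of that cluster was 0.0116%. Where mt- reads were present in set A, they usually came from very few genes: 161 of 249 such nuclei had reads of 1 mt- gene only, and no nucleus had more than 9.

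**Figure D1:**
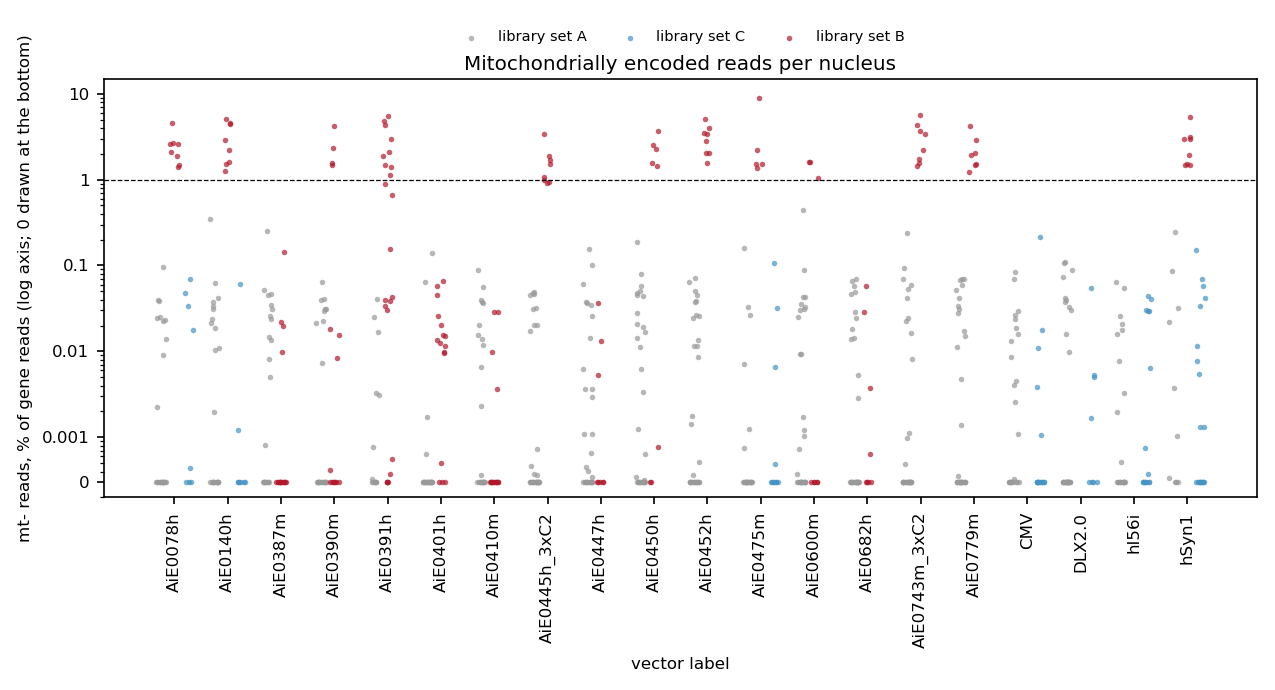
Percent of gene reads on the 13 mt- genes (vertical log axis, 0 drawn at the bottom) for each of 781 nuclei, by vector label and library set, with a dashed line at 1%. The 78 nuclei over the line are all of set B, and under 5 vector labels no nucleus of set B is over it.

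The same vector label gave different shares in different sets. For hSyn1, the human synapsin promoter used to reach neurons in general, the 8 nuclei of set B ranged from 1.48% to 5.42% with a median of 2.42%. The 10 nuclei of set A under the same label ranged from 0% to 0.247% with a median of 0.00242%, and the 20 of set C reached 0.150%. The groups of set B and the other sets did not overlap.

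Of the 17 vector labels with nuclei in both sets, 13 had a higher mean in set B than in set A, and under 8 the lowest nucleus of set B was above the highest of set A. Every nucleus of set B was over 1% under AiE0078h, AiE0140h, AiE0452h, AiE0475m, AiE0743m_3xC2, AiE0779m and hSyn1, in all 52 nuclei, with medians of 1.54% to 3.09%. None was under AiE0387m, AiE0401h, AiE0410m, AiE0447h and AiE0682h, where the highest of 64 nuclei had 0.142%. The other 5 labels held nuclei on both sides. CMV, hI56i and DLX2.0 had no nuclei in set B, so the set cannot be compared for them. Set A was even by comparison, with label means from 0.00643% for AiE0391h to 0.0393% for hSyn1.

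Within 4 of the 5 divided labels, nuclei of one cluster had consecutive numbers in their titles, a pattern noticed after the values were seen and not tested. Under AiE0390m, the 4 nuclei kept among numbers 1 to 5 had 1.47% to 4.17%, and the 11 among numbers 6 to 16 had at most 0.0183%. Under AiE0391h, the 12 nuclei among numbers 1 to 13 had at most 0.158%, and the 11 among numbers 14 to 24 had 0.658% to 5.51%. The same break fell between numbers 5 and 6 under AiE0450h, where numbers 1 to 5 had 1.45% to 3.70% and the 3 after them at most 0.000763%. Under AiE0600m it fell at the same place in the opposite direction: numbers 1 to 5 had no mt- read, and numbers 6 to 8 had 1.03% to 1.62%. AiE0445h_3xC2 had no such break, its 8 nuclei lying between 0.923% and 3.39%. In the order of the sample list the runs continued across labels. AiE0447h and AiE0682h, all in the lower cluster, stood between the low nuclei of AiE0450h and AiE0600m. AiE0410m, AiE0387m and AiE0401h, also all in the lower cluster, stood between those of AiE0390m and AiE0391h. The labels with every nucleus over 1% lay in runs with the high nuclei of divided labels. For labels of set B with all nuclei in 1 cluster, vector label and place in the list therefore cannot be told apart. Under the 4 labels with a break, the share changed with place while the label stayed the same.

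The labels do not say what the numbers stand for. Under AiE0391h the break also separated cell classes: all 12 nuclei before it expressed Slc17a7 and all 11 after it Gad1 or Gad2, so number and class cannot be told apart there. Under AiE0600m all 8 nuclei were of the Slc17a7 class on both sides of the break.

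**Figure D2:**
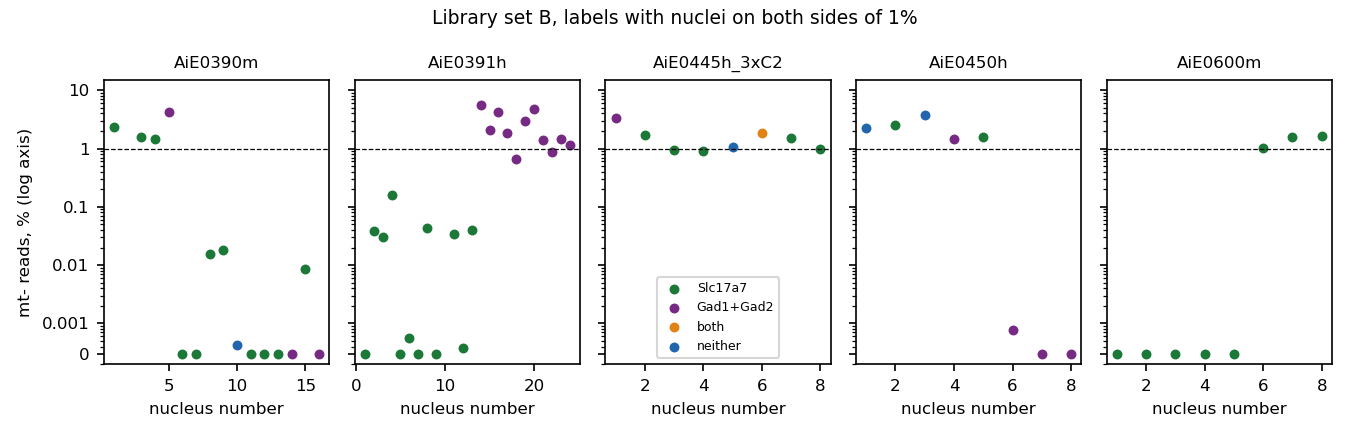
Percent of gene reads on mt- genes (vertical log axis, 0 drawn at the bottom) against the nucleus number in the title, for the 5 vector labels of set B with nuclei on both sides of 1% (dashed line); colours give the class by Slc17a7 and Gad1+Gad2 reads. Under AiE0390m, AiE0391h, AiE0450h and AiE0600m the high nuclei form 1 run of numbers.

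Classes of nuclei were set by 2 measures only. A nucleus was of the Slc17a7 class with at least 10 CPM (reads scaled to 1e6 per nucleus) of Slc17a7, which loads glutamate into the vesicles of cortical excitatory neurons, and of the Gad class with at least 10 CPM of Gad1 and Gad2 together, the enzymes that make GABA; some nuclei met both limits or neither. The tissue label did not match the markers of striatal projection neurons: Slc17a7 was read in 443 of 781 nuclei (56.7%), Drd1 in 6.02%, Drd2 in 0.640% and Adora2a in none (at most 0.384%).

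In set B, nuclei of neither class had the highest median. Their median was 3.86% (range 0 to 8.98%, 16 nuclei), against 0.0272% (0 to 4.61%, 98 nuclei) for the Slc17a7 class and 0.0326% (0 to 5.51%, 58 nuclei) for the Gad class. Both neuronal medians lie in the lower cluster, although 34 nuclei of the Slc17a7 class were over 1% (34.7%, 25.4 to 44.98) and 26 of the Gad class (44.8%, 31.7 to 58.5). Among nuclei of neither class it was 13 of 16 (81.3%, 54.4 to 96.0), and among those of both classes 5 of 6 (83.3%, 35.9 to 99.6), with a median of 1.68%. The medians of the neuronal classes turned on single vector labels: without AiE0410m the Gad median was 1.45%, and without AiE0391h 0.00372%. The Slc17a7 median without AiE0387m was 0.0513%. Among the nuclei over 1% alone the classes were closer. Their medians were 4.19% for neither class, 2.47% for the Gad class, 1.66% for the Slc17a7 class and 1.86% for both, with overlapping ranges.

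Inside vector labels the order was less uniform. Nuclei of neither class occurred under 10 labels of set B. Their median was above that of the other nuclei under 6 labels, without overlap under 4. AiE0140h held 4 of them, with 2.91%, 4.49%, 4.59% and 5.10%, and all 4 were above its other nuclei, which had 1.25%, 1.53%, 1.59% and 2.24%. Under AiE0475m the single such nucleus had 8.98%, the highest among the nuclei kept, against 1.36%, 1.52%, 1.54% and 2.21% for the others.

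Of the 16 nuclei of neither class in set B, 12 had reads of at least 3 of 8 astrocyte markers, and their 8 markers summed to a median of 21392 CPM over the 16. The Slc17a7 class of set B had a median of 0 CPM and at most 1408. Astrocytes are glial cells that support neurons. In sets A and C, nuclei of neither class had low shares: the highest of 16 in set A had 0.141% and the highest of 4 in set C 0.107%.

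Relative levels among the mt- genes were then described in the 78 nuclei over 1%, where each gene's share of the mt- reads could be measured well. mt-Cytb and mt-Nd1 together made up 66.4% ± 6.27 (SD) of the mt- reads, and 6 genes together made up 0.711% ± 0.196. By complex, the 7 genes of complex I held 58.6% ± 6.73, the single gene of complex III 34.7% ± 6.57, the 3 of complex IV 6.53% ± 2.89 and the 2 of complex V 0.130% ± 0.0555.

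Complex I takes electrons from NADH, and its mitochondrial subunits form the membrane arm. mt-Nd1 (ENSMUSG00000064341), at the junction with the hydrophilic arm, had 31.7% ± 7.16 of the mt- reads, from 11.05% to 47.5% over the 78 nuclei. The antiporter-like subunits followed: mt-Nd4 (ENSMUSG00000064363) had 9.31% ± 2.87, mt-Nd2 (ENSMUSG00000064345) 8.87% ± 2.79 and mt-Nd5 (ENSMUSG00000064367) 6.97% ± 3.01. Those 3 differed by less than 1 SD over nuclei. mt-Nd6, the only one of the 13 on the minus strand, had 1.58% ± 0.868. The small subunits mt-Nd3 and mt-Nd4l were far lower, with 0.2004% ± 0.110 and 0.00497% ± 0.0292, and mt-Nd4l had no read in 67 of the 78 nuclei.

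Complex III passes electrons to cytochrome c, and mt-Cytb (ENSMUSG00000064370), its only mitochondrial subunit, had the highest mean of all 13 genes, 34.7% ± 6.57 with a range of 21.6% to 57.2%. It exceeded mt-Nd1 in 46 of 78 nuclei, and the difference of the 2 means was smaller than either SD.

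Complex IV reduces oxygen and has its catalytic core in mt-Co1, mt-Co2 and mt-Co3. These 3 genes differed widely: mt-Co1 (ENSMUSG00000064351) had 6.16% ± 2.9002, mt-Co3 0.235% ± 0.0816 and mt-Co2 0.140% ± 0.0698. The lowest value of mt-Co1, 0.0103%, came from 1 nucleus of AiE0452h. That nucleus also had the lowest mt-Nd5, 0.0206%, no mt-Nd6, and the highest mt-Cytb. The ATP synthase subunits of the membrane part, mt-Atp6 and mt-Atp8, had 0.112% ± 0.0525 and 0.0185% ± 0.0182.

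Per kilobase of gene, which is needed to compare levels between genes, mt-Nd1 came first with 33.1% of mt- reads per kb and mt-Cytb second with 30.3%. mt-Nd2 had 8.55%, mt-Nd4 6.75%, mt-Co1 3.98%, mt-Nd5 3.82% and mt-Nd6 3.04%. The 6 lowest genes stayed at or under 0.576% per kb, the value of mt-Nd3, down to 0.0167% for mt-Nd4l. On this scale too the 6 genes lay below the other 7.

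Among these 6 genes were the 5 with nearly all words shared with a nuclear copy, and the other, mt-Atp8, had no shared word, although its last 43 bases lie in the copy of mt-Atp6 and the rest of the matching interval of chromosome 1 was not analysed. The genes with a large part of their words shared, mt-Nd4 and mt-Co1, had 6.75% and 3.98% per kb. That was below mt-Nd1, mt-Cytb and mt-Nd2 but above mt-Nd5 (3.82%) and mt-Nd6 (3.04%), which had few or no shared words. Counted over the bases outside shared words only, mt-Nd4 had 18.5% per kb and mt-Co1 15.9%, next to 33.1% for mt-Nd1, 30.3% for mt-Cytb, 10.3% for mt-Nd2, 5.05% for mt-Nd5 and 3.04% for mt-Nd6. This second scale takes every counted read to come from outside the shared words, which the table of counts cannot show. How the authors' counting treated reads that match several places is not given in the sources used here, so the part of the copies in these levels was not tested. Neighbouring genes overlap as well: mt-Atp8 and mt-Atp6 by 43 bases, mt-Nd5 and mt-Nd6 by 14 on opposite strands, and mt-Nd4l and mt-Nd4 by 7. Reads of mt-Nd6 and of antisense RNA there cannot be told apart in these counts.

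**Figure D3:**
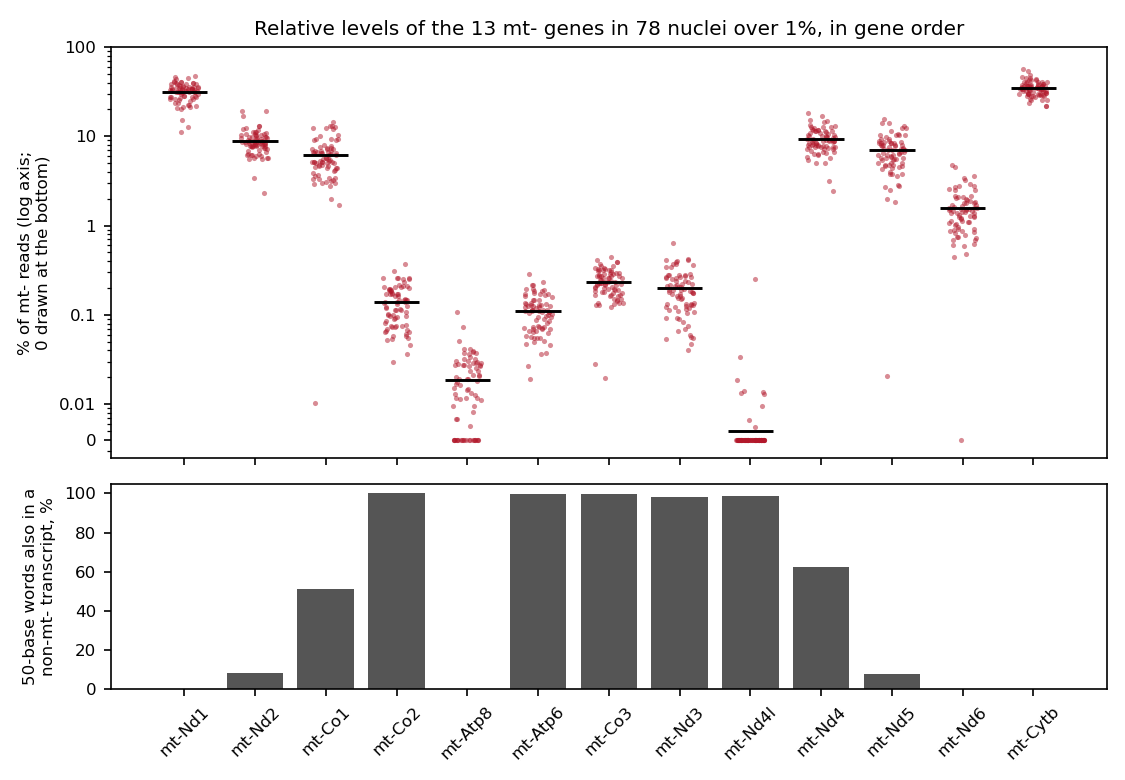
Upper panel, percent of mt- reads per gene (log axis, 0 drawn at the bottom) in each of 78 nuclei over 1%, in the order of the mitochondrial genome, with a bar at the mean. Lower panel, percent of each gene's 50-base words that also occur in a transcript of another gene: the 5 genes near 100% all have mean levels under 0.3% in the upper panel, and mt-Atp8 is as low with no shared word.

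The levels moved together across the nuclei over 1%. Over the 21 pairs of the 7 more abundant genes, Spearman's rho of their CPM lay between 0.433 for mt-Co1 with mt-Nd6 and 0.777 for mt-Nd4 with mt-Cytb, with a median of 0.550 (78 nuclei, which share a library set and the total in the denominator). Between vector labels with at least 5 such nuclei, the median share of mt-Nd1 ran from 27.7% of mt- reads (AiE0475m) to 40.04% (AiE0391h), and that of mt-Cytb from 30.2% (AiE0391h) to 38.9% (AiE0452h).

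The balance of mt-Cytb and mt-Nd1 differed by class. In the 13 nuclei of neither class over 1%, the median was 22.4% for mt-Nd1 (11.05% to 37.4%) and 43.8% for mt-Cytb (23.3% to 57.2%), and mt-Cytb was higher in 12 of them. In the 34 nuclei of the Slc17a7 class the medians were 31.8% and 33.8%, with mt-Cytb higher in 20. In the 26 nuclei of the Gad class they were 34.9% and 33.2%, with mt-Cytb higher in 11. The ranges of the classes overlapped. mt-Nd5 had a median of 3.81% in the nuclei of neither class, 7.03% in the Slc17a7 class and 6.62% in the Gad class, again with overlap. Of the 13 nuclei, 12 had at least 3 astrocyte markers, and the 13 read fewer genes in all, with a median of 2132 against 6564.5 in the Slc17a7 class and 5903.5 in the Gad class. Thinned to 100000 reads the medians were 1922, 5958.5 and 5290.5. The part of depth and gene number in this difference was not tested.

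Where mt- reads were few, their make-up was another. Pooled over nuclei, mt-Co1 supplied 26.2% of the mt- reads in set A and 55.8% in set C, next to 6.16% on average in the nuclei over 1%. mt-Nd1 supplied 18.03% and 10.5%, and mt-Cytb 30.4% and 19.5%. In set A, mt-Co1 was the most often read mt- gene, in 88 of 516 nuclei (17.1%), ahead of mt-Cytb in 65 and mt-Nd1 in 59, and in 45 of the 88 nuclei it was the only mt- gene read. In set C it was read in 24 of 87 nuclei, mt-Cytb in 8 and mt-Nd1 in 6. The lower cluster of set B had 28.9% for mt-Co1, 15.6% for mt-Nd1 and 14.8% for mt-Cytb. These totals rest on few nuclei: 1 nucleus gave 61.0% of all mt-Nd1 reads of set C, but at most 19.7% of the mt-Co1 reads.

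Set B was compared with set A over all genes by the ratio of pooled CPM, the summed reads of a gene over the summed reads of a set. With 1 unreplicated grouping this is a comparison of these libraries, and called means a difference of over 2-fold. Of 15079 genes with at least 1 CPM over all nuclei, 14.8% were higher in set B by over 2-fold, 13.5% were lower, and the median log2 ratio was -0.04. Of the 13 mt- genes, 7 reached 1 CPM in set A too, and all 7 were higher by over 2-fold; they were also higher by over 4-fold, as were 4.74% of all genes. Another 4, mt-Co2, mt-Atp6, mt-Co3 and mt-Nd3, passed the minimum only through set B, so that their ratios had to be high, and mt-Atp8 and mt-Nd4l did not pass.

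mt-Nd1 had 29.9 CPM in set A (29.02 to 30.7) and 4641 in set B (4623 to 4658), a log2 ratio of 7.28. For mt-Cytb the values were 50.3 (49.2 to 51.5) and 5395 (5376 to 5414), a log2 ratio of 6.74. mt-Co1 had the smallest ratio of the 7, 4.40, from 43.5 CPM in set A and 915 in set B. The remaining log2 ratios were 6.84 for mt-Nd2, 6.66 for mt-Nd4, 6.15 for mt-Nd5 and 6.21 for mt-Nd6. Within vector labels, pooled mt-Nd1 and mt-Cytb were each higher in set B under 13 of 17 labels, mt-Co1 under 14 and mt-Nd6 under 15, so most labels but not all had the direction of the pooled ratio. In set C against set A, where 7.63% of 15003 genes were higher by over 2-fold and 18.3% lower, 0 of the 7 were higher and 2 were lower, mt-Nd5 (log2 ratio -3.26, from 29 reads in set C) and mt-Nd2 (-1.69, 72 reads). mt-Co1 had 0.89 in that comparison.

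In pooled CPM over both clusters of set B, the nuclear-encoded partners of these proteins were also higher than in set A, by much less. From a list of 77 nuclear genes of the 5 respiratory complexes, 75 were matched by symbol and tested, with a median log2 ratio of 1.21. Of these, 47 (62.7%) were higher in set B by over 2-fold and 0 lower, next to 14.8% and 13.5% of all genes. In complex IV it was 10 of 11 genes, with Cox6b1 (log2 ratio 2.25, 136 CPM in set A and 651 in set B) and Ndufa4 (1.89) at the top and Cox5a (0.70) as the gene that did not pass. In complex I it was 25 of 36, from Ndufa5 (2.26) and Ndufa7 (1.88) down to Ndufs1 (-0.19) and Ndufv1, a subunit of the NADH-binding module (-0.84). Complex III had 5 of 9, namely Uqcrb (2.08), Uqcr11 (1.87), Uqcrq (1.48), Uqcr10 (1.33) and Uqcrh (1.30), while its lowest were Cyc1 (-0.30) and Uqcrc1 (-0.57). Complex V had 7 of 15, from Atp5e (2.11) and Atp5j (1.88) down to Atp5b, the catalytic subunit (-0.24), and Atp5l (-0.62).

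Complex II, which has no mitochondrially encoded subunit, had 0 of 4 past 2-fold, with Sdhc at 0.83, Sdhb at 0.72, Sdha at 0.07 and Sdhd at 0.00. Whether the list differs from the others was not tested. By the difference of mean log2(CPM+1), which weights nuclei equally, 2 of its 4 genes were higher by over 1, Sdhc (1.64) and Sdhb (1.14), where 17% of all genes were.

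The genes that transcribe, process and maintain the mitochondrial genome were described in the same way. Of 31 tested, 0 were higher by over 2-fold, next to 14.8% of all genes, and 4 were lower, a share near the 13.5% of all genes, with a median log2 ratio of -0.42. The lowest were Mterf4 (-2.51), Mterf1b (-1.60), Tefm (-1.58) and Mterf1a (-1.11), and the highest Hsd17b10 (0.64). By mean log2(CPM+1), 0 of the 31 were lower by over 1, next to 0.371% of all genes, and 1 was higher, Grsf1, next to 17%.

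Markers of RNA location and cell type are given beside these values. Of 10 abundant cytoplasmic mRNAs 5 were higher by over 2-fold, among them Eef1a1 (log2 ratio 1.79), Fth1 (1.45), Rps3 (1.37) and Actb (1.08), next to 14.8% of all genes, and the lowest was Rack1 (-0.19). Of 6 nuclear-retained RNAs 1 was higher, Neat1 (2.28), which was read in 8 of 178 nuclei of set B, and 0 were lower; Malat1, the most abundant of them, had -0.84. By mean log2(CPM+1) 6 of the 10 cytoplasmic mRNAs were higher by over 1, next to 17% of all genes. Of the 6 nuclear-retained RNAs 0 were higher and 2 lower, Snhg11 (-1.80) and Meg3 (-1.37), next to 0.371% of all genes lower. All 8 astrocyte markers were higher by over 2-fold in pooled CPM, led by Aqp4, which had no read in set A and 87.3 CPM in set B from 9 of 178 nuclei, while the smallest ratio was that of Slc4a4 (1.09). By mean log2(CPM+1) 0 of the 8 were higher by over 1, with Gfap at -0.02 and Aldoc at -0.11. The part of these markers and of the number of genes read in the mt- levels was not tested.

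**Figure D4:**
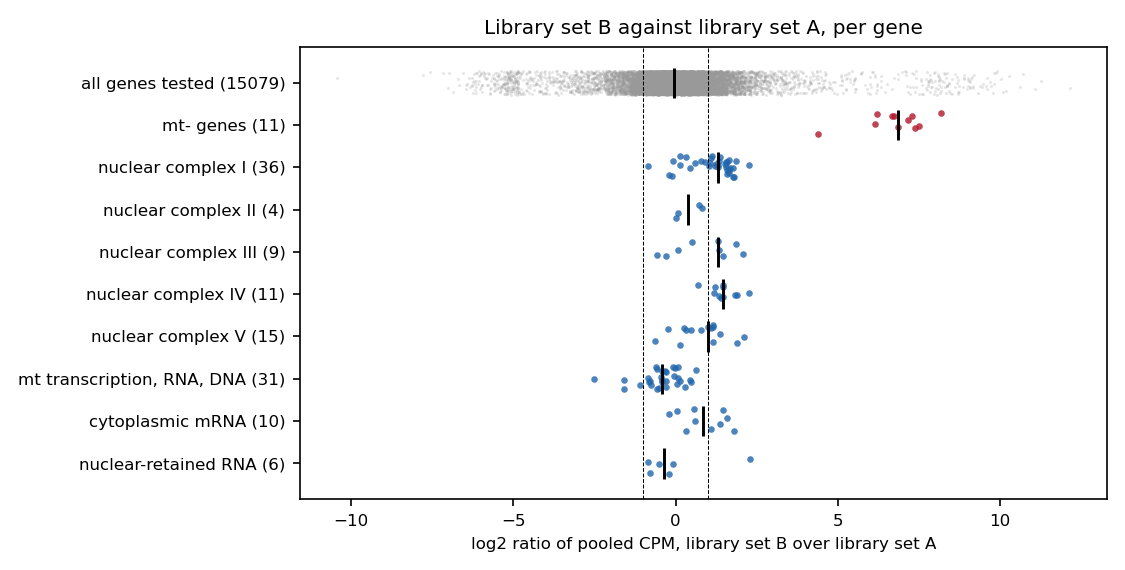
Log2 ratio of pooled CPM of set B over set A for each gene tested, by group, with a bar at each group's median, dashed lines at 2-fold and the number of genes in brackets. The mt- genes lie between 4.40 and 8.17, including the 4 that passed the minimum only through set B, and the nuclear complex genes mostly between 0 and 2.

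The same comparison was made within vector labels. The mean level of the 75 nuclear respiratory genes, as mean log2(CPM+1) with mt- reads left out of the total, was higher in set B under 13 of 17 labels, and 12 of those were among the 13 labels whose mt- share was higher. For hSyn1 it was 7.19 ± 2.09 (SD, 8 nuclei) in set B and 2.98 ± 0.451 (10 nuclei) in set A, and its median number of genes read was 6549.5 and 2527; the 8 nuclei were 3 of the Slc17a7 and 5 of the Gad class, and the 10 all of the Slc17a7 class. For AiE0387m, whose mt- share was not higher in set B, the level was 2.58 ± 0.633 (16 nuclei) and 2.95 ± 0.625 (22 nuclei), with 2434 and 2722.5 genes. Other labels with every nucleus of set B in the lower cluster had 3.57 in set B and 3.66 in set A (AiE0410m), 3.98 and 4.07 (AiE0682h), and 3.07 and 2.98 (AiE0401h). AiE0390m had a higher mt- share in set B but a level of 4.09 against 4.50, and AiE0447h a level of 3.96 against 2.66 without a higher mt- share. Both labels differed in class between the sets: AiE0390m had 11 nuclei of the Slc17a7 and 3 of the Gad class in set B but 1 and 22 in set A, and AiE0447h had 0 and 7 in set B but 27 and 1 in set A. AiE0410m had 2 nuclei of the Slc17a7 and 13 of the Gad class in set B but 15 and 9 in set A. AiE0682h had 3 and 5 in set B but 4 and 21 in set A. Set and class cannot be told apart under AiE0390m and AiE0447h, or fully under hSyn1, AiE0410m and AiE0682h. The median number of genes was higher in set B under 14 labels, also after thinning to 100000 reads (5815 and 2383.5 genes for hSyn1), and the median of gene reads under 11.

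Across single nuclei the relation was described within each cluster, since a value over both would mostly give their difference. Within the upper cluster of set B, nuclei with a higher mt- share had a lower level of the nuclear respiratory genes (Spearman's rho -0.665, 83 nuclei). In the lower cluster rho was 0.059 (95 nuclei), in set A -0.044 (516 nuclei) and in set C -0.031 (87 nuclei). The 10 cytoplasmic mRNAs behaved in the same way, with rho -0.757 in the upper cluster and 0.202 in the lower one, whereas the nuclear-retained RNAs had 0.011 and 0.224. Within classes the sign was the same: among the nuclei over 1%, rho for the respiratory genes was -0.530 in the 34 of the Slc17a7 class and -0.613 in the 26 of the Gad class. Gene reads were nearly unrelated to the mt- share in the upper cluster (rho -0.076), and the number of genes read had rho -0.316.

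**Figure D5:**
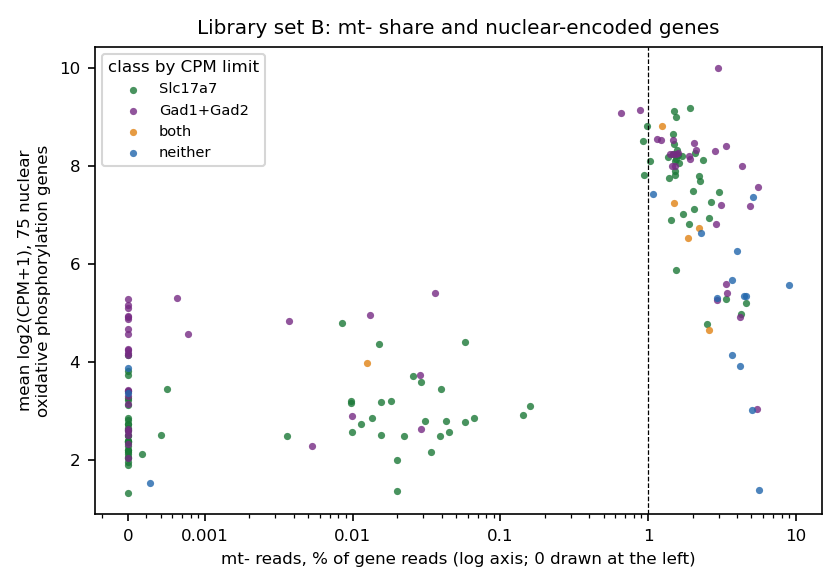
Mean log2(CPM+1) of 75 nuclear-encoded respiratory genes against the percent of gene reads on mt- genes (log axis, 0 drawn at the left) in the 178 nuclei of set B, coloured by class, with a dashed line at 1%. Within the cluster at the right, nuclei with a higher mt- share have a lower level (rho -0.665).

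The genes most like the mt- share were sought among 7967 genes read in at least 20% of the nuclei of set B, by Spearman's rho over its 178 nuclei (median rho 0.191). Because the nuclei form 2 clusters, this measure mostly ranks the difference between them. Lars2, the mitochondrial leucyl-tRNA synthetase encoded in the nucleus, came first with rho 0.842, or 0.488 within the upper cluster and 0.259 within the lower. It was followed by Gm15564 (0.830, and 0.532 within the upper cluster), Gnao1 (0.732, and 0.542), Atp1b2 (0.730), Gm42418 (0.729), Scd2 (0.712), Tmed10 (0.679), Ndufb4 (0.671), Epm2aip1 (0.670) and Hnrnpa0 (0.668). Lars2 had 55.8 CPM in set A and 1113 in set B. None of the 10 was among the genes that share a 50-base word with an mt- gene. The words were those of the mt- rows only, so sequence shared with mitochondrial ribosomal or transfer RNA genes was not searched for. Ndufb4, a complex I subunit, had rho -0.196 within the upper cluster, so its place rests on the difference between clusters.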

How the data were processed

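The authors deposited raw counts of reads for each gene in each nucleus. No molecular identifiers were used, and a molecule amplified several times is counted several times. Per the submitters' processing notes, STAR 2.7.2a and the mm10 build were used. Not given in the sources used here: the counter, its annotation, its strand setting and its treatment of introns and of reads matching several places. Of 2501 columns, 797 were matched to samples by library name and 1704 were not used here. Symbols were assigned to 32158 of 32285 rows by Ensembl identifier, and rows without one held 0.0931% of reads.

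Nuclei with fewer than 50000 gene reads (9) or fewer than 1000 genes (8), 16 in all, were left out. Shares of nuclei carry Clopper-Pearson intervals, read sums Poisson intervals, and a count of 0 the limit of 3 counts. Depth ran from 50565 to 666436 gene reads per nucleus. Pooled CPM used a minimum of 1 CPM over all nuclei, and the ratio was tested on simulated data. Python 3.11.15, numpy 2.4.6, pandas 2.3.3, scipy 1.17.1 and matplotlib 3.10.9 were used. Sequences are from GENCODE M21 transcripts.

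The members and lists were chosen with earlier results of these data known. All mt- genes are named; of each list the genes with the largest and smallest ratios, and any counted among 5 or fewer, except 1 cytoplasmic mRNA that is not reported here; and the 10 genes most like the mt- share. For some comparisons nuclei were thinned at random to 100000 reads. The word search, the runs of numbers, the 2 clusters and the comparisons by class within the nuclei over 1% were chosen after seeing the values. Alternatives were other nucleus filters, limits, pooling, class limits, scalings and leaving out each vector label.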

Additional observations from a re-analysis of the deposited data

Results flagged for a closer look

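In 8 of 16 groups of 4 to 10 nuclei that share a vector label and a library set, the highest nucleus stood apart from the others by Dixon's criterion (95% level). Its rate by chance, about 1 in 20 groups, holds for normally spread values; these shares are skewed and often 0, so the number of such groups has no yardstick here. Under AiE0475m in set B the highest mt- share was 8.98%, from a nucleus of neither class with 2265 genes, and the next was 2.21%. In set B the highest were also 4.61% for AiE0078h (next 2.67%), 3.39% for AiE0445h_3xC2 (next 1.86%), 5.42% for hSyn1 (next 3.12%) and 0.0361% for AiE0447h (next 0.0132%). In set A it was 0.247% for hSyn1 (next 0.0872%). In set C it was 0.0602% for AiE0140h (next 0.00121%) and 0.0548% for DLX2.0 (next 0.0053%).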

How the results depend on the processing

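Of 131 recomputed main values, 130 stayed within the spread over nuclei or within 1.5 times the count. With SDs this wide that says little of the class medians. Changes of direction were not assessed. With a limit of 2%, 42 instead of 78 nuclei of set B were over it. With no filter on nuclei the mean of set B was 1.82% against 1.17%, through 2 nuclei with 88.4% and 33.02%. Without each vector label in turn, the mean mt- share ran from 1.09% to 1.29% in set B, from 0.0155% to 0.0166% in set A and from 0.0130% to 0.0151% in set C. The class medians of set B ran from 0.00372% to 1.45% for Gad, from 0.0200% to 0.0513% for Slc17a7, from 1.496% to 1.86% for both and from 3.69% to 4.11% for neither. No paired analysis was possible because the labels do not say what the nucleus numbers stand for and no test was made from nuclei. Over all genes tested, the median log2 ratio of pooled CPM of set B over set A was -0.04. The median difference of mean log2(CPM+1), another measure that weights nuclei equally, was 0.26. In most nuclei of sets A and C, mt- reads came from 1 gene or none, which limits what their make-up can show.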
